A study of Mus musculus with 9 samples.

Results

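Growth hormone signalling and the IGF axis were followed in mouse liver through 10 genes: Ghr, Igf1, Igfals, Socs2, Cish, Stat5a, Stat5b, Bcl6, Cux2 and Onecut1. They were chosen by name, by their known place in the axis, from a table of 32285 genes. The choice was made with earlier results of these data known. All 10 were in the table and all 10 passed the filter for testing, a mean of at least 10 normalized counts, which 12100 genes passed. A normalized count is the number of reads of a gene divided by a size factor of its library.

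RNA of whole liver was sequenced from Tet-OFF mice in 3 groups of 3 libraries each. The mice carried a piggyBac CAG-CreERT2 transgene, a Rosa26-LSL-tTA allele and a Rosa26-tetO-Venus-ires-mCherry allele, so that tamoxifen, given to all 3 groups, removes a stop cassette and tTA then drives Venus and mCherry in the absence of a tetracycline. From 4 weeks of age, Dox mice drank doxycycline hyclate and Tc mice tetracycline hydrochloride, both at 2 mg/mL with 10 mg/mL sucrose and for 7 days, while Control mice received tamoxifen without either drug. Because both drugs also switch the transgene off, an effect of the drug and the loss of Venus and mCherry cannot be told apart. The drug-treated mice were male. What the Control mice drank, and whether the mice were chimeras or their offspring, are not given in the sources used here.

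In the liver, growth hormone binds its receptor, the receptor-bound kinase JAK2 is activated, and STAT5 proteins are phosphorylated and move to the nucleus. There they turn on Igf1, whose product circulates bound to IGF-binding proteins and to the acid-labile subunit encoded by Igfals, and also Cish and Socs2, whose products act back on the receptor as brakes. The secretion pattern of growth hormone, pulsatile in males and more even in females, sets many sex-biased liver genes, and Bcl6, Cux2 and Onecut1 encode transcription factors of that network.

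A few promoter stretches are shown because they hold the motif that STAT5 is known to bind, so that the letters can be read beside the values of Cish, Igfals and Bcl6 given further on. The motif TTCNNNGAA is its own reverse complement, so both strands were read at once, and its letters are in capitals. Sequences are from RefSeq promoters (GRCm38.p6, 250 bases before to 50 bases after each transcription start site), and they are written 5′ to 3′ on the strand of the gene.
Cish, plus strand, chr9:107296559-107296688, from 100 bases before the start site to base 30 after it: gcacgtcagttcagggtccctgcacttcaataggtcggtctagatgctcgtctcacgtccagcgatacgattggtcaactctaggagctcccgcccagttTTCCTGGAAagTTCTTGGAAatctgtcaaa
Igfals, plus strand, chr17:24878131-24878230, the 100 bases before the second of its 3 start sites: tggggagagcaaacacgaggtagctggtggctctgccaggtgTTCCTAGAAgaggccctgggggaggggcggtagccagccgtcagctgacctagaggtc
Bcl6, minus strand, chr16:23981354-23981463, from 180 to 71 bases before the second of its 2 start sites: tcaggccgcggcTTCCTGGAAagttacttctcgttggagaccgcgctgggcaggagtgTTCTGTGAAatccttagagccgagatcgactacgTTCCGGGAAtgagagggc
Counted from 1 at the start site, the matches of Cish began at bases 1 and 12, that of Igfals at -58, and those of Bcl6 at -168, -122 and -88.

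RefSeq promoters were found for 9 of the 10 genes, 16 promoters in all, and none was found for Socs2. The motif was present in 5 of the 16 promoters and in 3 of the 9 genes: Cish, Igfals and Bcl6. The first Igfals promoter held 1 match at -236 and the first Bcl6 promoter 1 match at -118. Of all 32851 RefSeq promoters, 8.3% held the motif and 0.457% held 2 or more matches, as the Cish promoter and the second Bcl6 promoter did. Of 27025 genes, 9.55% had it in at least 1 promoter. A match describes letters in the window and is not evidence of binding.

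**Figure D1:**
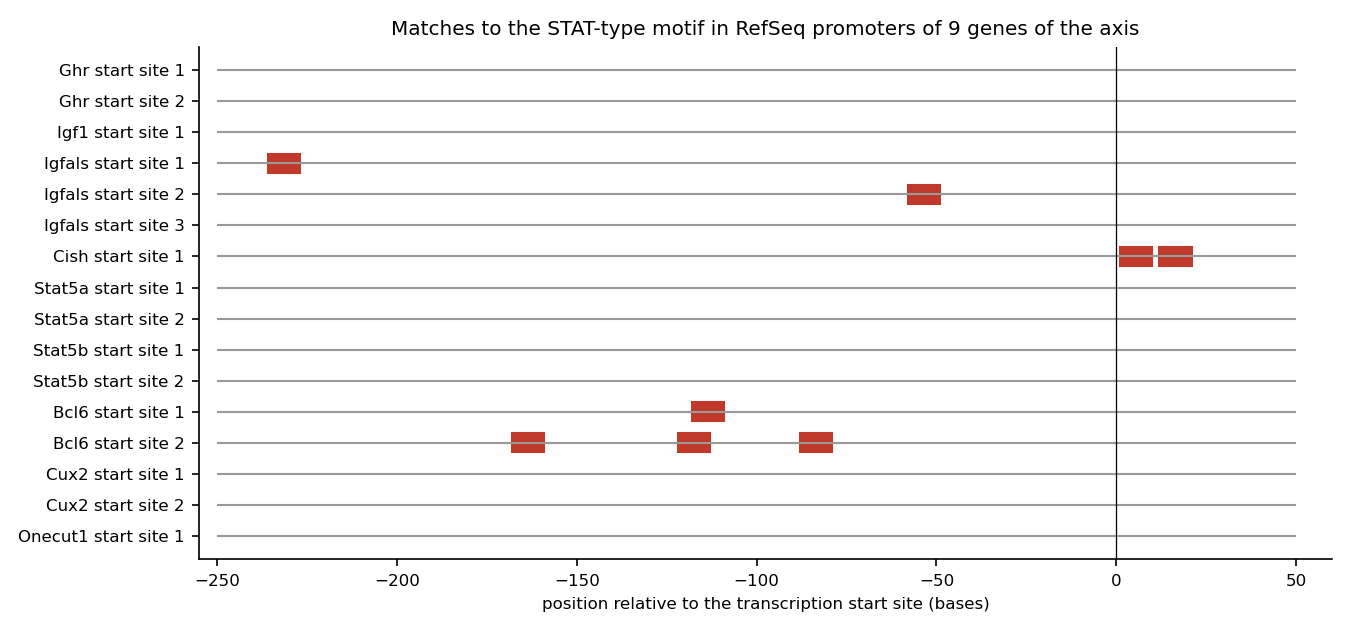
Positions of the motif in the 16 promoters of 9 genes of the axis. The x axis is the distance from the transcription start site in bases, each grey line is 1 promoter, and each red box is 1 match of 9 bases; matches lie in the Cish promoter, in 2 of 3 Igfals promoters and in both Bcl6 promoters.

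The libraries held from 7426136 to 12183041 reads on genes, and whole reads could be recovered from the normalized values. In each group, library 3 could be written nearly as a sum of libraries 1 and 2, with weights of 58.6% and 40.9% in Control, 61.3% and 34.4% in Dox and 59.8% and 36.9% in Tc. The libraries of a group thus do not behave as 3 independent livers, which by itself makes p-values from all 9 libraries too small. Calls made with all 9 libraries are therefore set beside fits without libraries 3. The study describes the samples as independent, but no label ties a library to a mouse of its own. All 9 libraries held transcripts of the Y-linked gene Ddx3y (545.9 to 1139.9 normalized counts) and few of Xist (2.3 to 44.1).

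Libraries within a group differed widely for these genes. Libraries 1 and 2 were more than 2-fold apart for 2 of the 10 genes in Control, 6 in Dox and 4 in Tc, against 4.84%, 35.2% and 8.45% of all tested genes. The summed normalized counts of 10 hepatocyte markers, none of them at 0, ranged from 1475041.2 to 1994323.6 in Control, from 614254.0 to 1114376.6 in Dox and from 1173335.7 to 1699539.6 in Tc. Alb was the largest part of this sum in every library, with 1408836.3 in Control library 1 and 607452.5 in Dox library 1. The markers were mixed: their median log2 fold change with Dox was -0.44, and limma called 1 as lowered and 0 as raised. Cps1 had 62019.7, 127213.0 and 80945.4 in Dox and 58689.8, 47780.5 and 54557.3 in Control. The sums of 10 Kupffer cell and macrophage markers ranged from 7760.0 to 14326.7 in Control, from 2208.1 to 7615.0 in Dox and from 3935.3 to 7557.4 in Tc. The 6 endothelial markers summed to 4807.8 to 4994.0, 2257.6 to 3020.7 and 3458.8 to 4262.5. Fewer cells of a type and less RNA per cell cannot be told apart in these bulk samples, and the part of cell composition in the results below was not tested.

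Per kilobase of exon, the mean level in Control livers was highest for Igf1 (643.5 normalized counts per kilobase), followed by Igfals (526.4), Ghr (419.3), Onecut1 (189.2), Stat5b (178.4), Cish (75.9), Cux2 (65.7), Socs2 (51.7), Stat5a (36.4) and Bcl6 (9.7). The ranges over the 3 Control libraries overlapped between Onecut1 and Stat5b and along the order from Cish to Stat5a. The ranges of the other neighbours in the order did not overlap. In GENCODE vM21, 52.8% of the Onecut1 exon bases are shared with Gm20649 on the same strand, so its count is uncertain. Cish, Stat5a and Bcl6 share from 0.313% to 7.46% of their exon bases with genes on the opposite strand, and whether counting used strand is not given in the sources used here.

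**Figure D2:**
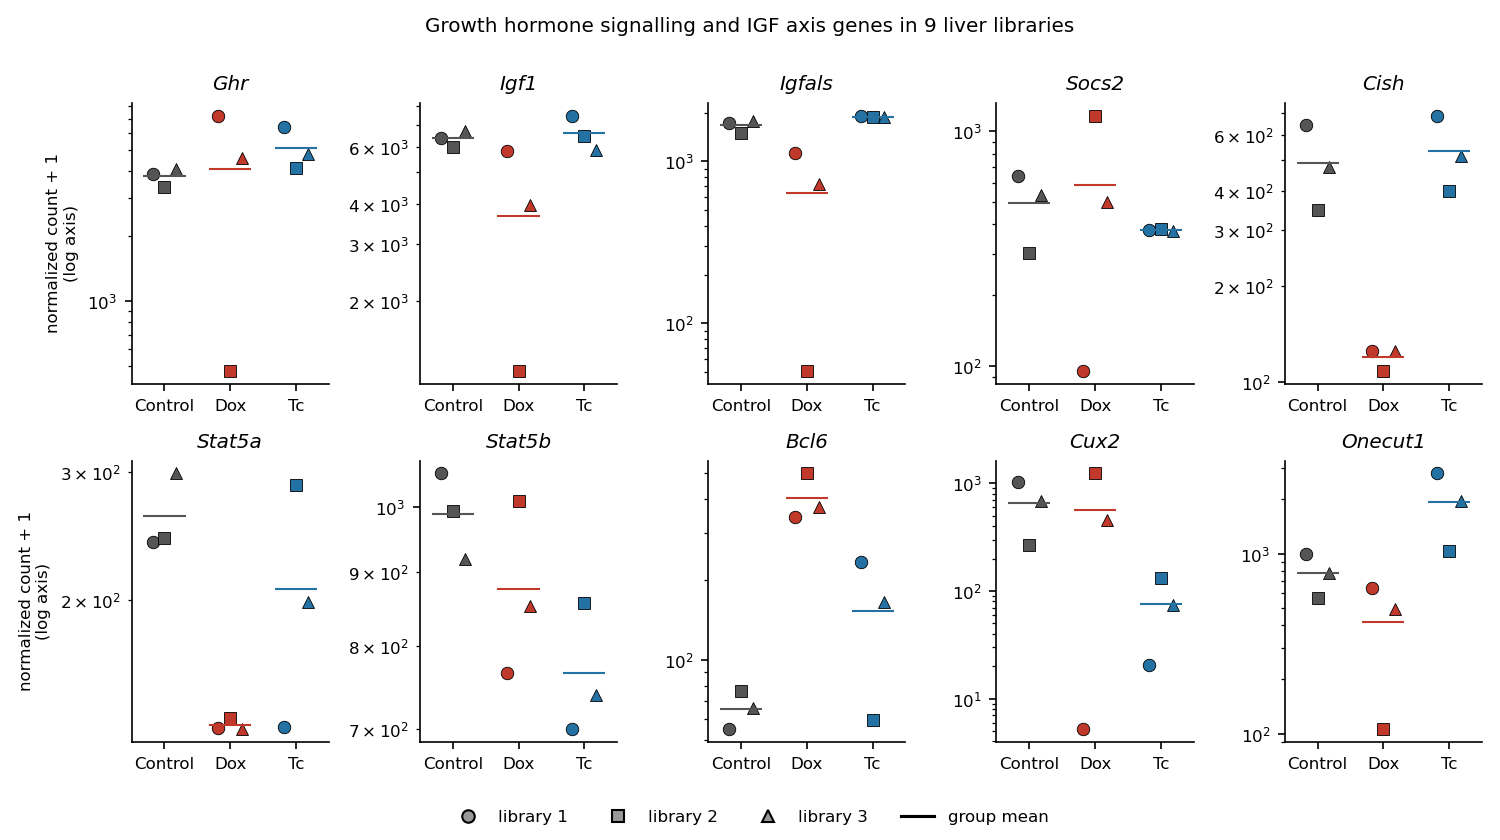
Normalized counts plus 1 of the 10 genes in each of the 9 libraries, on a log axis. Circles, squares and triangles are libraries 1, 2 and 3 and the bar is the group mean; all 3 Dox libraries lie below every other library for Cish and above every other library for Bcl6, while the Dox libraries are spread widely for Ghr, Igfals, Socs2 and Cux2.

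The first question was how the axis differed between Dox-treated and Control livers. Cish, the feedback inhibitor, fell to 0.252 times its Control level, and Bcl6, a transcriptional repressor known to oppose STAT5, rose 6.13-fold. These were the only 2 of the 10 genes called with limma, that is, they changed more than 2-fold with an adjusted p (Benjamini-Hochberg) below 0.05. In the same comparison 5.00% of all tested genes were called, 1.14% raised and 3.86% lowered. DESeq2 with all 9 libraries called the same 2 genes and 9.37% of all tested genes. With array weights, which give each library a weight by its fit, limma called Igfals and Stat5a as well, both lowered, and 12.9% of all tested genes. In that fit 69.0% of all tested genes had an unadjusted p under 0.05, against 29.1% without weights. A library 3 that is nearly a sum of libraries 1 and 2 lies near the group mean. Weights by fit may favour it, so p-values under array weights may be too small. With Dox library 1 alone for the Dox group, a setting chosen after seeing the data, 4 of the 10 and 9.38% of all tested genes passed the same limits, but the spread then comes from the other groups alone, so values of that setting are given below without a test. The 10 genes had a median log2 fold change of -1.0, against 0.00 for all tested genes. All 3 Dox libraries lay on the same side of the Control range for 5 of the 10 genes (Igf1, Igfals, Cish, Stat5a and Bcl6). They did so for 33.3% of all tested genes.

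The receptor gene Ghr (ENSMUSG00000055737, chromosome 15, 3317760 to 3583492 in GRCm38) had 3903.8, 3377.8 and 4106.5 normalized counts in Control libraries 1, 2 and 3, and 7254.0, 471.6 and 4625.0 in Dox libraries 1, 2 and 3. Dox library 1 was above and Dox library 2 far below all Control libraries, so the groups overlapped. The log2 fold change was -0.59 (95% confidence interval -2.52 to 1.34, limma adjusted p = 0.669), and it was 0.12 with DESeq2, so no direction is given for Ghr.

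Both STAT5 genes lie next to each other on chromosome 11, Stat5b at 100780731 to 100850724 and Stat5a at 100859351 to 100885169. Stat5a had 239.2, 242.4 and 297.5 normalized counts in Control and 132.7, 136.9 and 132.0 in Dox. All Dox libraries were below all Control libraries and close to each other. Its log2 fold change of -0.94 (SE 0.25) did not reach a 2-fold change, and its limma adjusted p was 0.0526. Stat5b, the more abundant per kilobase in every group, had 1054.3, 991.7 and 919.2 in Control and 764.5, 1008.8 and 851.6 in Dox. The groups overlapped, and the log2 fold change was -0.18 (95% confidence interval -0.51 to 0.14, limma adjusted p = 0.422).

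Cish (ENSMUSG00000032578, chromosome 9, 107296026 to 107302784), which encodes a SOCS-family protein that restrains STAT5 signalling, had 641.5, 345.9 and 474.2 normalized counts in Control and 124.3, 107.0 and 124.0 in Dox. The Dox libraries were nearly equal, and the highest of them was 2.78-fold below the lowest Control library. Cish fell by 1.99 on the log2 scale (SE 0.26, limma adjusted p = 0.00773). Without libraries 3 it was -2.02 with limma, not called (adjusted p = 0.559; limma then called 0% of the 12100 tested genes, of which 1040 had an unadjusted p under 0.05, Cish and Bcl6 among them), and -2.09 with DESeq2, called (adjusted p = 0.00743), where 1.19% of all tested genes were called. Leaving out Control replicate 3 also ended the call (limma adjusted p = 0.0504). Cish is the gene with both of its printed motif matches within the first bases of the transcript.

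Socs2, the related suppressor of growth hormone receptor signalling (ENSMUSG00000020027, chromosome 10, 95385362 to 95417180), had 642.5, 302.6 and 534.0 normalized counts in Control and 93.7, 1161.8 and 499.7 in Dox. Dox library 1 was below and Dox library 2 above all Control libraries. The limma log2 fold change was -0.31 (95% confidence interval -2.04 to 1.43, adjusted p = 0.813) and the DESeq2 value 0.25, so no direction is given. With Dox library 1 alone it was -2.31, and without Dox replicate 1 it was 0.70 (limma adjusted p = 0.205). The 2 feedback genes thus differed in Dox library 2, where Cish was below and Socs2 above every Control library.

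Igf1 (ENSMUSG00000020053, chromosome 10, 87858265 to 87937042), the main secreted growth factor of the axis, had 6397.7, 5988.5 and 6733.2 normalized counts in Control and 5827.2, 1213.6 and 3977.5 in Dox. Dox library 1 was just below the lowest Control library and Dox library 2 far below it. The log2 fold change was -1.07 (SE 0.48, limma adjusted p = 0.185), which was not called. Without Dox replicate 1 it was -1.53 and called (limma adjusted p = 0.0339, with 12.4% of all tested genes called), and with Dox library 1 alone it was -0.13.

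Igfals, the acid-labile subunit that keeps IGF in circulation (ENSMUSG00000046070, chromosome 17, 24865997 to 24882010), had 1736.0, 1495.1 and 1769.8 normalized counts in Control and 1124.6, 49.5 and 724.1 in Dox. All Dox libraries were below all Control libraries, and libraries 1 and 2 of the Dox group were 22.7-fold apart. Its log2 fold change of -2.27 (SE 0.96) was not called (limma adjusted p = 0.159). It was called without Dox replicate 1 at -3.12 (limma adjusted p = 0.0364), a fit with the same limit as for Igf1, and with Dox library 1 alone it was -0.56. Without libraries 3, Igfals was called neither by limma (-2.76, adjusted p = 0.583) nor by DESeq2 (-1.46, adjusted p = 0.675).

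Bcl6 (ENSMUSG00000022508, chromosome 16, 23965052 to 23988852) had 54.0, 75.2 and 64.8 normalized counts in Control and 341.2, 498.1 and 371.3 in Dox. The lowest Dox library was 4.54-fold above the highest Control library. Bcl6 rose by 2.62 on the log2 scale (SE 0.44, limma adjusted p = 0.0150). Without libraries 3 it was 2.67 with limma, not called (adjusted p = 0.559), and 2.7 with DESeq2, called (adjusted p = 0.0185). Leaving out any 1 of the Control libraries or Dox replicate 3 ended the call, with limma adjusted p-values from 0.0541 to 0.0719. The Control values rest on 51 to 85 reads per library, and for the 51 reads of Control library 1 counting error alone gives a 95% interval of 40.2 to 71.0 normalized counts (exact Poisson).

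Cux2, a transcription factor gene that is higher in female liver (ENSMUSG00000042589, chromosome 5, 121856366 to 122050102), had 1028.9, 268.9 and 689.1 normalized counts in Control and 4.2, 1235.4 and 451.3 in Dox. Dox library 1 rests on 4 reads (exact Poisson 95% interval 1.09 to 10.2 reads), while Dox library 2 was above every Control library. A log2 fold change of -2.01 had a 95% confidence interval of -6.07 to 2.05 (limma adjusted p = 0.479). Dox library 1 alone, with its 4 reads, gave -6.79, and the value was 0.37 (limma adjusted p = 0.757) without Dox replicate 1.

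Onecut1, the hepatocyte factor HNF6 (ENSMUSG00000043013, chromosome 9, 74861921 to 74891781), had 987.6, 568.9 and 778.1 normalized counts in Control and 646.5, 104.7 and 490.0 in Dox. Dox libraries 2 and 3 were below all Control libraries and Dox library 1 was within their range. Its log2 fold change was -1.24 (95% confidence interval -2.71 to 0.24, limma adjusted p = 0.241).

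**Figure D3:**
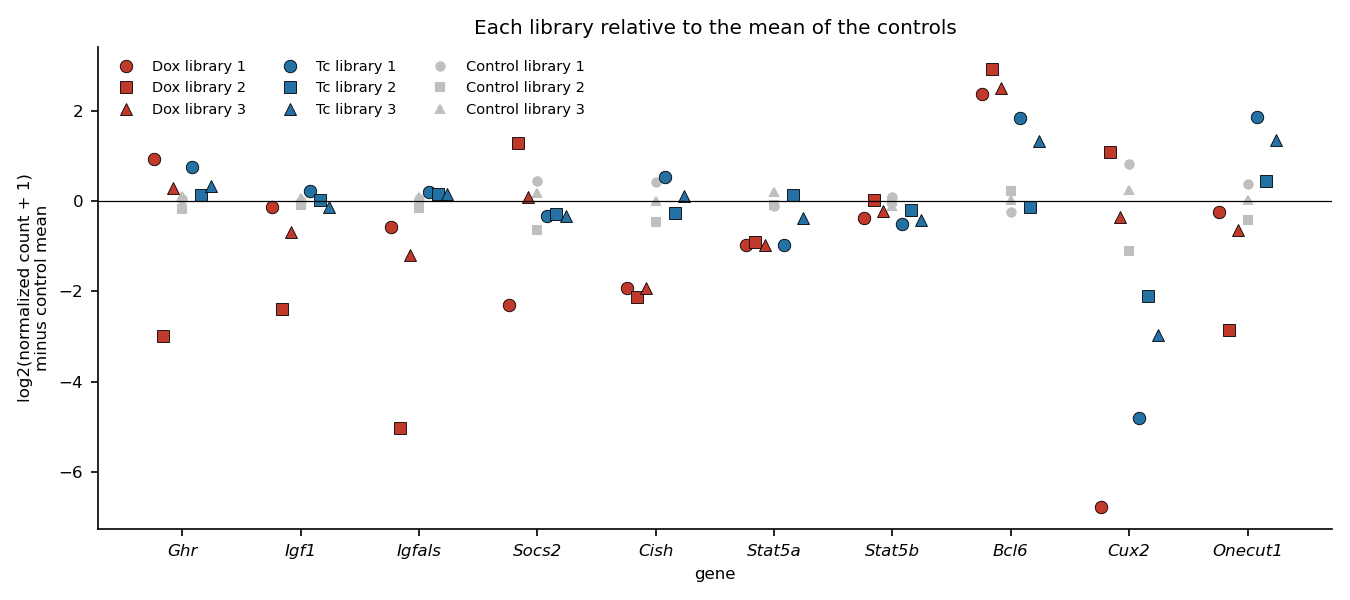
Each library relative to the Control mean on the log2(normalized count + 1) scale, for the 10 genes on the x axis. Dox library 2 (red square) lies at -3.00 for Ghr and -5.04 for Igfals but at 1.30 for Socs2, and Dox library 1 (red circle) lies at -6.79 for Cux2.

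The next question was whether the same genes differed with tetracycline, compared with the same Control libraries. Onecut1 had its highest group mean and Cux2 its lowest with Tc, but none of the 10 genes was called with limma, where 0.165% of all tested genes were. Of the 10, 2 had an unadjusted limma p under 0.05 (Stat5b and Bcl6), as had 11.7% of all tested genes. That fit pools the spread of all 3 groups, so the wide spread of the Dox libraries enters the Tc intervals and p-values. In a limma fit of the Tc and Control libraries alone, 25.6% of all tested genes had an unadjusted p under 0.05. DESeq2 and edgeR also called none of the 10 (1.58% and 0.174% of all tested genes), with 4 and 3 of them at an unadjusted p under 0.05, against 12.7% and 12.3% of all. Array weights, with the limit given above, gave calls for Bcl6, Cux2 and Onecut1 and for 6.09% of all tested genes. The median log2 fold change of the 10 genes was 0.09, against 0.00 for all tested genes. All Tc libraries lay on the same side of the Control range for 5 of the 10 genes (Ghr, Igfals, Stat5b, Cux2 and Onecut1), as for 30.7% of all tested genes.

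Onecut1 had 2783.1, 1035.9 and 1951.4 normalized counts in Tc libraries 1, 2 and 3, each above the highest Control library. The lowest of them exceeded that Control library by 1.05-fold only. The log2 fold change was 1.23 (95% confidence interval -0.25 to 2.7, limma adjusted p = 0.522). Cux2 had 19.5, 132.2 and 72.4, all below the lowest Control library by at least 2.03-fold, and a log2 fold change of -3.30 (95% confidence interval -7.36 to 0.76, limma adjusted p = 0.528). In a limma fit of the Tc and Control libraries alone, Cux2 was called (adjusted p = 0.0358), as were 2.28% of all tested genes.

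Bcl6 was split, with 231.4, 58.5 and 163.4 normalized counts in the Tc libraries. Tc library 2 lay within the Control range and the others above it, and the log2 fold change was 1.01 (95% confidence interval 0.01 to 2.02, limma adjusted p = 0.425). Stat5a was split in the same libraries, with 132.8, 286.9 and 197.9, of which Tc libraries 1 and 3 were below all Control libraries. Its log2 fold change was -0.40 (95% confidence interval -0.97 to 0.17, limma adjusted p = 0.601).

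Cish, with 687.5, 397.5 and 511.2 normalized counts, overlapped the Control libraries, and the log2 fold change was 0.14 (95% confidence interval -0.45 to 0.72, limma adjusted p = 0.894). Igf1, with 7486.9, 6458.5 and 5850.9, also overlapped them, at 0.04 on the log2 scale (95% confidence interval -1.06 to 1.15, limma adjusted p = 0.987). Igfals was nearly equal among the Tc libraries, with 1915.9, 1868.7 and 1868.9, above each Control library. Its log2 fold change was 0.18 (95% confidence interval -2.0 to 2.36, limma adjusted p = 0.968).

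Ghr had 6451.8, 4159.1 and 4799.0 normalized counts with Tc, each above the highest Control library. The smallest gap was 1.01-fold, and the log2 fold change was 0.42 (95% confidence interval -1.52 to 2.35, limma adjusted p = 0.901). Socs2, with 376.9, 383.1 and 373.1, was within the Control range in every Tc library, at -0.31 (limma adjusted p = 0.920). Stat5b, with 698.2, 856.1 and 737.8, was below all Control libraries, at -0.37 (95% confidence interval -0.70 to -0.05, limma adjusted p = 0.381).

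**Figure D4:**
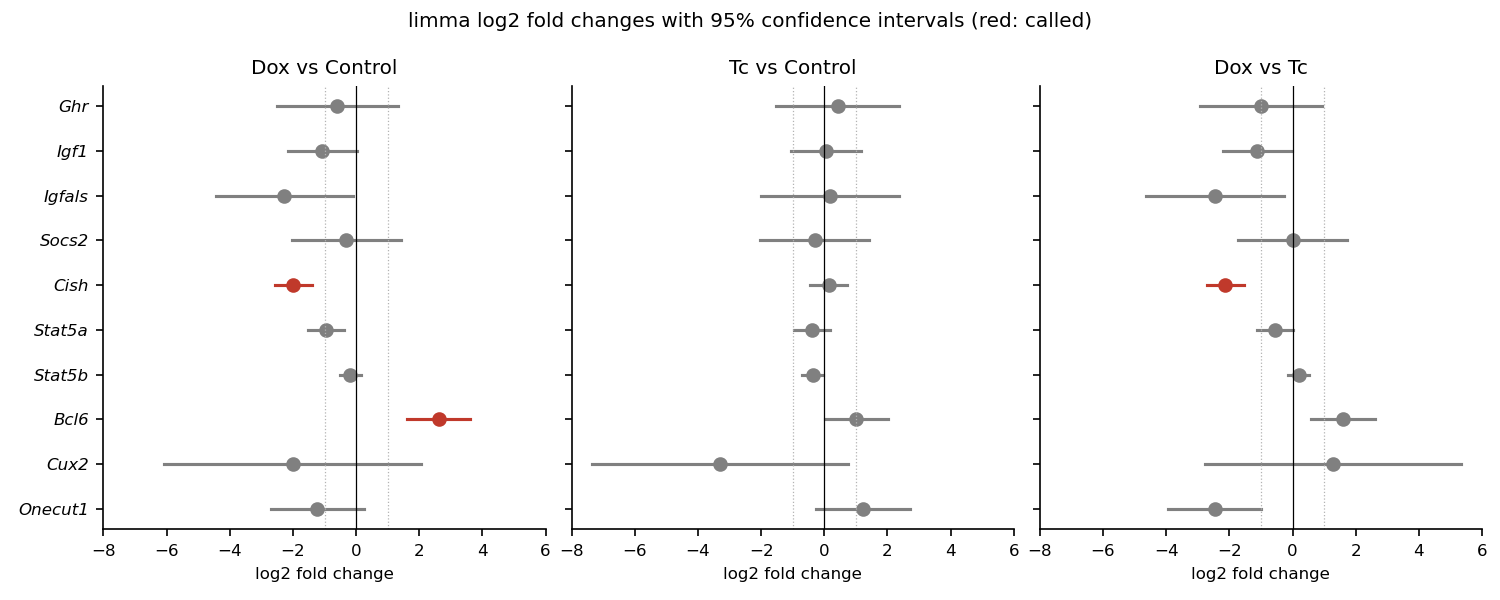
Log2 fold changes of the 10 genes from limma with all 9 libraries (points) and their 95% confidence intervals (lines), for Dox against Control, Tc against Control and Dox against Tc. Called genes are red, dotted lines mark a 2-fold change, and the called genes are Cish and Bcl6 with Dox against Control and Cish with Dox against Tc.

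Doxycycline and tetracycline are related molecules, and they were given at the same concentration in drinking water for the same time. The groups were therefore also compared directly, although the amounts taken up are not given. Cish was lower with Dox than with Tc in every library, and it was the only 1 of the 10 genes called with limma, where 0.215% of all tested genes were called. The log2 difference was -2.13 (SE 0.26, 95% confidence interval -2.71 to -1.54, limma adjusted p = 0.0487). Without libraries 3 the difference was called with DESeq2 (-2.23, adjusted p = 0.0125, 0.264% of all tested genes called) and not with limma (adjusted p = 0.755, 0% of all tested genes called, 3 of the 10 and 454 of all at an unadjusted p under 0.05). edgeR with all 9 libraries called none of the 10 (adjusted p = 0.0575 for Cish; 4 of the 10 had an unadjusted p under 0.05) and 0% of the 12100 tested genes, of which 2861 had an unadjusted p under 0.05. The limma call was also lost in 6 of 9 fits that left out 1 library (each Control library, Dox replicate 3, Tc replicate 2 or Tc replicate 3), with adjusted p-values from 0.0849 to 0.274.

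Bcl6 was higher with Dox than with Tc in every library, by 1.60 on the log2 scale (95% confidence interval 0.60 to 2.61, limma adjusted p = 0.129), which was not called. DESeq2 with all 9 libraries called it (adjusted p = 0.0221), where it called 5.03% of all tested genes, but not without libraries 3 (adjusted p = 0.682). Onecut1 was lower with Dox in every library, by -2.46 (95% confidence interval -3.94 to -0.99, limma adjusted p = 0.122), with DESeq2 adjusted p-values of 0.00506 with libraries 3 and 0.461 without them. Together with Igf1 and Igfals, 5 of the 10 genes did not overlap between the drugs, as did 24.6% of all tested genes. Without Dox replicate 1, when limma called 11.3% of all tested genes, 6 of the 10 were called: Bcl6 and Cux2 (higher with Dox) and Igf1, Igfals, Cish and Onecut1 (lower). Without Dox replicate 2, with 1.48% called, the genes were Cish and Igfals. Both of these fits keep Dox library 3, which is nearly a sum of Dox libraries 1 and 2. With array weights, under the limit given above, and 8.85% called, the genes were Igfals, Cish, Bcl6, Cux2 and Onecut1.

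For the remaining genes the intervals were wide and do not show that the drugs act alike. The log2 difference of Dox minus Tc was -1.11 for Igf1 (95% confidence interval -2.21 to -0.01), -2.45 for Igfals (-4.63 to -0.27), -1.01 for Ghr (-2.94 to 0.93) and 1.29 for Cux2 (-2.77 to 5.35). It was 0.01 for Socs2 (-1.73 to 1.74). Stat5a and Stat5b had the narrower intervals, at -0.55 (-1.12 to 0.02) and 0.19 (-0.13 to 0.52). The median over the 10 genes was -0.78, against -0.02 for all tested genes.

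For the wider pathway 2 lists were read, 24 genes of growth hormone receptor signalling and 18 genes of IGF and insulin receptors, ligands and binding proteins, of which 35 in all were tested. With Dox, 3 of the 35 were called with limma, where 5.00% of all tested genes were, and the 3 were lowered: Prlr and Sirpa of the first list and Itih4 of the second. DESeq2 with all 9 libraries called 3 raised and 4 lowered (3.31% and 6.07% of all tested genes), and without libraries 3 it called 0 raised and 2 lowered (0.355% and 0.835%). The median log2 fold change of the 35 was -0.08, against 0.00 for all tested genes. None of the 35 was called with Tc against Control, where DESeq2 and edgeR called none either and 3 had an unadjusted limma p under 0.05. None was called with limma or edgeR with Dox against Tc, where 12 had an unadjusted limma p under 0.05 (21.7% of all tested genes), and DESeq2 called 5 with all 9 libraries and 0 without libraries 3. The medians were -0.03 and -0.08.

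Prlr, the prolactin receptor and a relative of the growth hormone receptor, had 4185.4, 3272.5 and 4175.2 normalized counts in Control, 1188.8, 476.2 and 899.1 in Dox and 2071.2, 4266.1 and 2447.5 in Tc. All Dox libraries were below all others. The log2 fold change with Dox was -2.27 (SE 0.37, limma adjusted p = 0.0136), and without libraries 3 it was called with DESeq2 (adjusted p = 0.0305) and not with limma (adjusted p = 0.559). Leaving out any 1 of the Control libraries or Dox replicate 3 ended the limma call (adjusted p from 0.0501 to 0.0678). Sirpa, a membrane protein expressed on macrophages, had 628.8, 1009.4 and 851.8 in Control and 204.3, 502.7 and 331.7 in Dox, at -1.33 (limma adjusted p = 0.0412) with all libraries. Without libraries 3 it was called neither by DESeq2 (adjusted p = 0.404) nor by limma (adjusted p = 0.573). Limma called it in 1 of 9 fits that left out 1 library (the one without Dox replicate 2). The sum of 10 Kupffer cell and macrophage markers was also lower with Dox, as given above, and limma called 3 of them as lowered. Not every marker was lower in every Dox library. Cd68 had 358.9 normalized counts in Dox library 2, against 109.0, 166.3 and 170.4 in Control. A link of Sirpa to cell composition was not tested.

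Itih4 encodes an abundant plasma protein and was in the IGF list, although it is not itself an IGF receptor, ligand or binding protein. It had 111512.3, 75118.3 and 93354.6 normalized counts in Control, 19486.5, 13294.0 and 16591.8 in Dox and 33607.6, 147497.6 and 76642.6 in Tc. All Dox libraries were below all others, at -2.50 against Control (SE 0.50, limma adjusted p = 0.0241), and without libraries 3 it was called with DESeq2 (adjusted p = 0.038) and not with limma (adjusted p = 0.565). Leaving out any 1 of the Control libraries, Dox replicate 3 or Tc replicate 3 ended the limma call (adjusted p from 0.0512 to 0.0973). Of 14 acute phase genes in a list of its own, each Dox library had 13 below every Control library, where from 36.0% to 43.4% of all tested genes were. Tc library 1 also had 13 below (33.8% of all tested genes), and Tc library 2 had 12 above (31.4%).

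Igfbp1, which binds IGF and is induced when insulin is low, had 845.8, 356.5 and 653.5 normalized counts in Control, 61.1, 82200.5 and 27852.2 in Dox and 209.9, 1709.5 and 766.4 in Tc. Dox library 1 was the lowest and Dox library 2 the highest of all 9, and the log2 fold change of 3.16 had a 95% confidence interval of -2.06 to 8.38 (limma adjusted p = 0.386). DESeq2 called Igfbp1 with all 9 libraries (5.89, adjusted p = 0.00228) and not without libraries 3 (adjusted p = 0.264). Irs2, an adaptor of insulin and growth hormone signalling, had 738.8, 528.2 and 633.1 in Control and 179.0, 5843.5 and 2064.9 in Dox, with the same order of the Dox libraries. Irs2 was at 1.04 with limma (adjusted p = 0.526), and DESeq2 called it with all 9 libraries (2.09, adjusted p = 0.0474) but not without libraries 3 (adjusted p = 0.478).

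Igfbp2 had 3124.8, 697.1 and 1856.2 normalized counts in Control and 3647.5, 12472.7 and 6511.3 in Dox, each Dox library above each Control library. The log2 fold change of Igfbp2 was 2.06 (SE 0.58, limma adjusted p = 0.0617), and it was called by DESeq2 with all 9 libraries (1.99, adjusted p = 0.0044) and not without libraries 3 (adjusted p = 0.278). Igfbp3, the main carrier of IGF in blood, had 509.1, 435.3 and 432.3 in Control and 223.2, 958.2 and 478.6 in Dox, at 0.03 (95% confidence interval -0.98 to 1.04, limma adjusted p = 0.968). The signalling kinase gene Jak2 ranged from 222.9 to 281.0 in Control and from 200.2 to 235.8 in Dox, at -0.19 (limma adjusted p = 0.421). Igf1r, at 0.02 (limma adjusted p = 0.984), and the inhibitor gene Socs3, at 0.40 (limma adjusted p = 0.652), overlapped between Dox and Control.

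**Figure D5:**
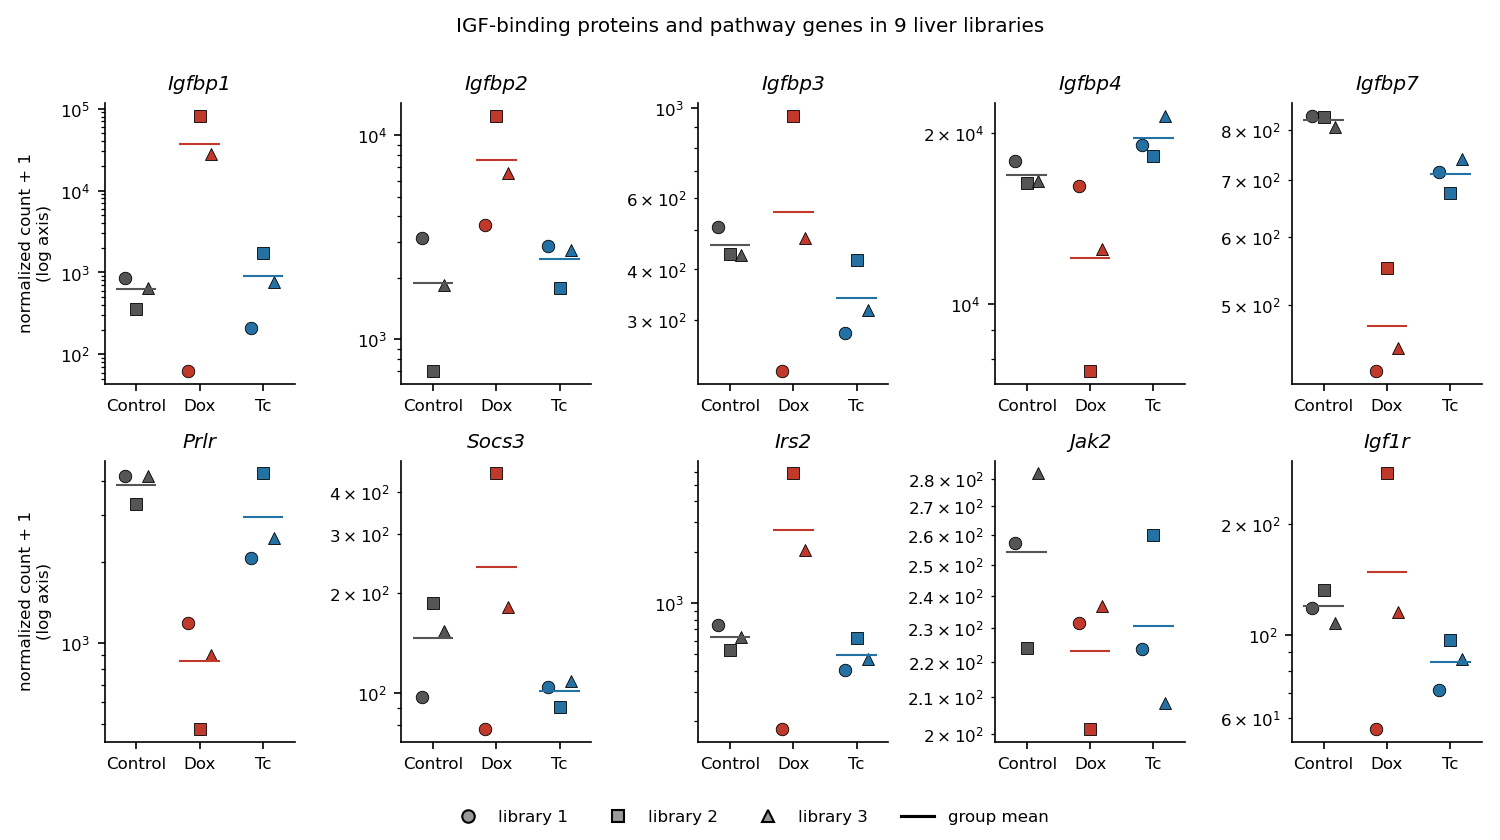
Normalized counts plus 1 of 10 pathway genes in each of the 9 libraries, on log axes. Circles, squares and triangles are libraries 1, 2 and 3 and bars are group means; Dox library 2 is the highest of all 9 for Igfbp1 (82200.5), Igfbp2, Igfbp3, Irs2, Socs3 and Igf1r and the lowest for Prlr, Igfbp4 and Jak2.

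Sex-biased genes, many of which depend on the growth hormone pattern, also differed between libraries of 1 group. Of 23 tested male-biased genes, 22 were above every Control library in Dox library 1 and 21 in Dox library 3, where 39.3% and 38.5% of all tested genes were. In Dox library 2 the number above was 2 and the number below 18, against 41.5% and 43.4% of all. In Tc libraries 1, 2 and 3 the number above was 21, 4 and 21, against 37.1%, 31.4% and 33.4% of all. Of 28 tested female-biased genes, 22, 14 and 17 were below every Control library in Dox libraries 1, 2 and 3 (36.4%, 43.4% and 36.0% of all tested genes). In Tc libraries 1, 2 and 3 they were 20, 3 and 10 (33.8%, 31.0% and 31.7%). Cux2 was lowest in Dox library 1 and Tc library 1, and of the 6 drug libraries Bcl6 was within the Control range in Tc library 2 only. With Dox, limma called 1 of the 23 (Sult5a1, lowered) and 5 of the 28 (A1bg, Abcd2, Cyp2c69, Cyp3a41a and Cyp3a44, which were lowered), where 3.86% of all tested genes were called as lowered and 1.14% as raised. DESeq2 with all 9 libraries called 8 male-biased genes as raised and 1 as lowered, and 5 female-biased genes as raised and 12 as lowered (3.31% and 6.07% of all tested genes). Without libraries 3, DESeq2 called no gene of either list as raised, and as lowered it called Sult5a1, A1bg, Cyp2c69, Cyp3a41a and Cyp3a44 but not Abcd2 (adjusted p = 0.231). Limma called none with Tc, where 1 and 4 had an unadjusted p under 0.05 and DESeq2 with all 9 libraries called 0 and 2. The median log2 fold changes with Dox and Tc were 0.53 and 1.24 for the male-biased list and -1.66 and -0.82 for the female-biased list. Cyp2c69, Cyp3a41a and Cyp3a44 have close paralogs, so their counts are uncertain.

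Calls in the other lists with Dox against Control varied with the test and the libraries, and without libraries 3 limma called none of all tested genes. Of 14 acute phase genes, limma with all 9 libraries called 8 as lowered (Apcs, Fgb, Hp, Orm2, Saa1, Saa2, Saa3 and Steap4), against 3.86% of all tested genes, and DESeq2 called 13, against 6.07%. Without libraries 3, DESeq2 called Apcs, Orm2, Saa1 and Saa2, against 0.835%, and not Fgb, Hp, Saa3 or Steap4 (adjusted p from 0.0626 to 0.191). Of 12 genes of the response to fasting, limma called 2 as raised (Acot1 and G6pc), against 1.14% of all, and DESeq2 called 8, against 3.31%. Without libraries 3, DESeq2 called Acot1, against 0.355%, and not G6pc (adjusted p = 0.119). Of the 12, 10 were above every Control library in Dox library 2 and 3 in Dox library 1, against 41.5% and 39.3% of all tested genes.

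Among cell type markers, limma with all 9 libraries called as lowered 3 of 10 tested for Kupffer cells (Adgre1, Clec4f and Csf1r). It also called as lowered 2 of 6 for endothelium (Cdh5 and Stab2), 1 of 4 for erythroid cells (Slc4a1) and 1 of 4 for neutrophils (Mpo). Of 3 for cholangiocytes, 1 was called as raised (Sox9). Of all tested genes, 3.86% were called as lowered and 1.14% as raised. Lists were mixed: the erythroid gene Klf1 had 43.2, 64.4 and 47.5 normalized counts in Dox and 8.5, 23.0 and 25.4 in Control. Without libraries 3, DESeq2 called Clec4f, Stab2, Slc4a1 and Mpo but not Adgre1 (adjusted p = 0.152), Csf1r (0.273), Cdh5 (0.432) or Sox9 (0.164). None of 20 liver transcription factors and related genes around the axis was called with Dox (5 at an unadjusted limma p under 0.05, against 29.1% of all tested genes; DESeq2 called none).

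Genes with the most similar profile were found by Pearson correlation of log2 values over the 9 libraries among 9379 genes with a mean of at least 50. For Igf1 they were Enpep (r = 0.995), BC024386 (0.995) and Farp1 (0.993), for Socs2 Prpf38a (0.98), Ginm1 (0.960) and Slc16a5 (0.955), and for Bcl6 Llgl1 (0.98), Psmd3 (0.979) and Gsk3a (0.976). The 9 libraries share the 3 groups, and each library 3 is nearly a weighted sum of libraries 1 and 2, so these values describe the profiles only. Enpep, for example, had 284.1 normalized counts in Dox library 2 and 1184.6 in Dox library 1, the order seen for Igf1.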

How the data were processed

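RNA-seq of mouse liver was analysed in 9 libraries, 3 per group, grouped by the sample labels. The authors trimmed single-end reads with cutadapt, aligned them to mm10 with STAR 2.7.11ac, counted them with HTSeq 2.0.5 and normalized them with DESeq2 1.42.0. The deposited values are a signal: read counts scaled by 1 size factor for each library. Coordinates and exon lengths are those of GENCODE vM21 (GRCm38).

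Here log2(normalized count + 1) was tested with limma 3.58.1 (trend, 1 model of 9 libraries, R 4.3.3), adjusted by Benjamini-Hochberg over the 12100 genes whose mean was at least 10. Fold changes are on that scale, which understates those of low genes. Whole reads, recovered for 100% of values within 0.01 of a whole number, went into DESeq2 1.42.0 and edgeR 4.0.16 as alternative tests. Confidence intervals cover the spread between libraries as limma estimates it. The model fits were tested on simulated data. Error rates for the libraries used here cannot be read from that test, because libraries of a group do not behave as independent livers.

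The 10 genes and all lists were chosen with earlier results of these data known. Other named genes were those called in a list, the 3 with the largest change with Dox in each pathway list, and Igfbp1, Igfbp2, Igfbp3, Socs3, Jak2, Igf1r and Prlr. Deviations from the group means correlated between Dox and Tc libraries of the same number in the labels (r = 0.29, 0.32 and 0.18) but not between Control and either drug (-0.08 to 0.06), so a replicate block was also fitted. Alternatives covered the pseudocount, filter, scaling, test, groups in the fit, weights, block, thresholds and each library left out.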

Additional observations from a re-analysis of the deposited data

How the results depend on the processing

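Counts of called genes depended on the libraries and the test. For Dox against Control the number among the 10 genes was 2, and 4 under array weights. It was 0 without libraries 3 with limma and with edgeR, and from 0 to 4 with 1 library left out. The highest of these came without Dox replicate 1, where 12.4% of all tested genes were called. Without libraries 3, 2 of the 10 had an unadjusted limma p under 0.05. The fit with Dox library 1 alone, chosen after seeing the data, assumes that the lone library varies like the other groups. Its number of calls is therefore not given. Array weights raised the share of all tested genes called too (12.9% for Dox against Control). Cish kept its direction under all 23 alternatives and was called in 20, and Bcl6 in 17. These counts include the fit with Dox library 1 alone. For Tc against Control the number among the 10 genes was 1 with only the 2 groups compared (2.28% of all tested genes called) and 3 under array weights (6.09%). For Dox against Tc it was 1 (0.215% of all tested genes called), with 3 by DESeq2 (5.03%) and 5 under array weights (8.85%). The number was 0 with a pseudocount of 8, a mean of at least 50, the same total per library, edgeR, only the 2 groups compared, and limma or edgeR without libraries 3. With 1 library left out it ran from 0 to 6, the 6 without Dox replicate 1 (11.3%). Of the 35 pathway genes, the 3 called with Dox became 7 by DESeq2 and under array weights (9.37% and 12.9% of all tested genes called) and 6 by the adjusted p alone. They became 0 without libraries 3 with limma and with edgeR, and from 0 to 9 with 1 library left out, the 9 without Dox replicate 1 (12.4%). For Dox against Tc they were 5 by DESeq2 and under array weights (5.03% and 8.85%), and from 0 to 12 with 1 library left out, the 12 without Dox replicate 1 (11.3%).

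Reversed values for Dox against Control were, for Ghr, 0.12 by DESeq2, 0.11 by edgeR, 0.24 under array weights, 0.09 and 0.07 by DESeq2 and edgeR without libraries 3, 0.94 with Dox library 1 alone, and from -1.36 to 0.61 with 1 library left out. For Socs2 they were 0.25 and 0.23 by DESeq2 and edgeR, 0.41 and 0.39 without libraries 3, and from -1.11 to 0.70 with 1 left out, and for Cux2 from -3.57 to 0.37. For Tc against Control, Igf1 was -0.09 under array weights and from -0.05 to 0.13 with 1 left out, and Cish from -0.09 to 0.36. For Dox against Tc, Socs2 was -0.20 by limma without libraries 3, -2.0 with Dox library 1 alone and from -0.80 to 1.01 with 1 left out. Ghr was 0.52 and Cux2 -3.49 with Dox library 1 alone, and they ran from -1.77 to 0.20 and from -0.27 to 3.67 with 1 left out. The replicate block changed no call of the 10 genes, with an adjusted p of 0.0367 for Cish between the drugs. The causes were not tested.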
